A study of Rattus norvegicus with 3 samples.

Results

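The glycosyltransferases described here build the glycans of the cell surface by adding fucose, sialic acid, galactose, N-acetylgalactosamine (GalNAc) or N-acetylglucosamine (GlcNAc). They were chosen by their symbol on the array. It had to start with Fut, St3gal, St6gal, St8sia, B3gal, B3gnt, B4gal, Galnt, Mgat or Gcnt, or to be A3galt2. The rule itself uses no measured value, but it was set with earlier results of these data known. This gave 70 of the 35525 genes on the array, read by 80 probes. Rat induced pluripotent stem cells of the line M13 (iPS M13), untreated and kept on irradiated mouse embryonic fibroblast feeders, were compared with mix1, an RNA mix of adult rat cells made up of cultured bone marrow cells and cultured primary fibroblasts of the ear. On each of 3 two-colour whole-genome arrays the iPS M13 RNA was labelled with Cy3 and the same mix1 RNA with Cy5. The labels name 1 iPS line and do not say whether its 3 samples were cultured apart, so every p-value reflects array-to-array spread that may be technical, and mix1 counts as 1 control RNA whose own spread is left out. No dye was swapped, so dye and group cannot be told apart, and mouse feeder RNA in the iPS M13 samples was not tested.

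Glycosyltransferases of the Golgi take a sugar from a nucleotide donor and add it in a fixed linkage to a growing glycan on a protein or a lipid. The combination of enzymes a cell expresses sets which outer structures can be made. In mouse embryonic stem cells the fucosylated Lewis x structure is the surface antigen SSEA-1, while in human pluripotent cells the globo-series lipids SSEA-3 and SSEA-4 are surface markers.

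Most of the measured members were lower in iPS M13. Of the 70 genes, 41 were measured, and in the other 29 neither RNA was well above background on all 3 arrays. In 20 of those 29 neither RNA passed on any array. On the whole array 20357 of 35525 genes were tested. Among the 41, 3 were higher and 23 were lower in iPS M13 by limma at an adjusted p under 0.05 and at least a 2-fold difference, and 15 passed neither way. Over all 20357 genes tested, 18.8% were called higher and 25.4% were called lower. The 41 members had a median log2 ratio (iPS M13 over mix1) of -1.24, against -0.02 over all genes tested. Of the 41, 9 passed the background filter through mix1 alone and 2 through iPS M13 alone, which favours a difference, so these counts and the median describe the measured members and support nothing by themselves. The same limit holds for the counts and medians by sugar below. Of the 26 called members, 16 were well above background in both RNAs on all 3 arrays. The 3 higher members were St6galnac3, Galnt7 and Mgat4a, which add sialic acid, GalNAc and GlcNAc. By their measured means 13 members were at least 4-fold lower, St6galnac2 among them with a bound of 3.54-fold, and 3, A3galt2, Gcnt2 and B3galnt1, were at least 16-fold lower.

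Values below are log2 signals of each RNA after normalization, in the order of replicates 1, 2 and 3, and log2 ratios are iPS M13 over mix1, given as mean ± SD over 3 arrays. Where a fold difference is given as "at least", it is a bound that was not tested. The adjusted p beside such a bound is that of the measured mean log2 ratio. Every called member had 1 sign on all 3 arrays, as had 39 of all 41 measured members. Because the arrays differed little, a 2-fold call nearly fixes the sign, so that count adds no support. The median SD of a tested member was 0.04, and the correlation of log2 ratios between arrays was 0.997 to 0.998 across genes, which are not independent replicates. Between 53.5% and 60.8% of probes were well above background in iPS M13 and between 52.4% and 61.0% in mix1, and the number of arrays limits the precision.

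The probes below show what was measured for 2 of the higher members, Galnt7 and Mgat4a, and for 2 of the lower ones, St3gal4 and St3gal3, which add sialic acid in the same linkage. They were picked because their span in rat build rn3, per the file headers, is longer than the 60 bases of the probe, which places them across more than 1 block of the genome. The spans are chr16:36114849-36119698 for Galnt7, chr9:36391021-36395853 for Mgat4a, chr8:34860560-34861336 for St3gal4 and chr5:138410463-138426675 for St3gal3. Sequences are 5′ to 3′ as deposited, with no part set in capitals.
Galnt7: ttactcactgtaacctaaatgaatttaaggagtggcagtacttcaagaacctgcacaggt
Mgat4a: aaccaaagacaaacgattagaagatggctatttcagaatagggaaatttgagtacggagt
St3gal4: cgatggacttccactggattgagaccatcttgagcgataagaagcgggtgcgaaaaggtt
St3gal3: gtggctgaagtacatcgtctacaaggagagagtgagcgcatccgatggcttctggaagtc

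**Figure D1:**
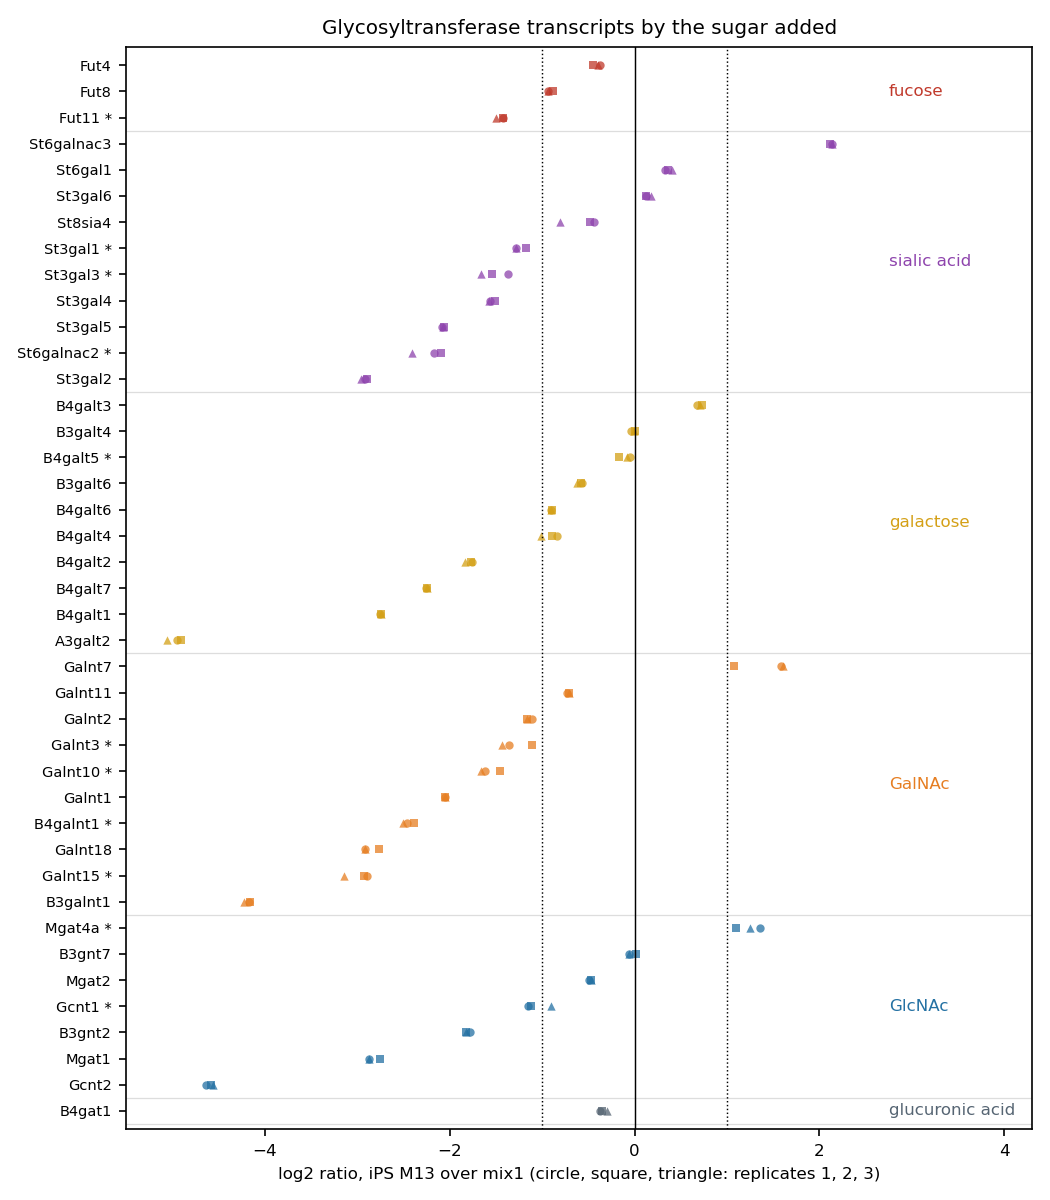
Log2 ratio of iPS M13 over mix1 (horizontal axis) for each of the 41 measured members, grouped by the sugar added. Each point is 1 array, dotted lines mark a 2-fold difference, and an asterisk marks a member not well above background on all 3 arrays in both RNAs; most points lie left of 0, with A3galt2, Gcnt2 and B3galnt1 farthest left and St6galnac3 farthest right.

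Fucosyltransferases were represented by 7 genes, of which 3 were measured and 1, Fut11, was lower in iPS M13. Shares among all genes tested were 25.4% lower and 18.8% higher. Fut4, which adds fucose in alpha-1,3 linkage and can make Lewis x, had signals of 10.38, 10.69 and 10.60 in iPS M13 and 10.75, 11.15 and 11.00 in mix1. The iPS M13 signal was below the mix1 signal on each array, by a log2 ratio of -0.41 ± 0.04 (SD, n = 3; limma, adjusted p = 0.00015), short of 2-fold, and median centring turned the ratio to 0.40. The highest iPS M13 signal came close to the lowest mix1 signal without reaching it. Fut8, the enzyme of core fucose on N-glycans, had signals of 11.44, 11.62 and 11.59 in iPS M13 and 12.38, 12.51 and 12.53 in mix1. Its ratio of -0.92 ± 0.03 fell short of 2-fold, and its second probe gave -0.93, but the ratio was -0.08 with median centring and -0.12 with no within-array normalization. Fut11, an alpha-1,3-fucosyltransferase family member, had signals of 7.59, 7.62 and 7.58 in iPS M13, where 2 of 3 arrays were well above background, and 9.01, 9.05 and 9.09 in mix1. These stood clear of each other, with a ratio of -1.45 ± 0.05 (adjusted p = 5.5e-06).

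Fut9, the main Lewis x enzyme in mouse embryonic tissue and brain, was not tested because neither RNA passed on all 3 arrays. It had signals of 7.63, 7.65 and 7.58 in iPS M13, well above background on 2 arrays, and of 6.60, 6.75 and 6.28 in mix1, where no array passed. Set against that dim signal, iPS M13 was at least 1.45-fold higher, with no test. Without the filter on dim probes, its measured log2 ratio of 1.08 was called higher, a value that rests on a mix1 signal at background. Fut1 and Fut2, which add alpha-1,2 fucose and make H antigens, stayed near background: neither RNA was well above it on any array. Fut1 had 6.26, 6.34 and 6.47 in iPS M13 and 6.33, 6.34 and 6.46 in mix1, and Fut2 had 6.55, 6.57 and 6.56 in iPS M13 and 6.55, 6.59 and 6.56 in mix1. Fut7, the leukocyte enzyme of sialyl Lewis x, was below that limit too.

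Sialyltransferases numbered 17, with 10 measured, 1 higher, 6 lower and 3 that passed neither way, and a median log2 ratio of -1.39. Of the lower ones, St3gal1, St3gal3 and St6galnac2 passed the background filter through mix1 alone. The alpha-2,3 group held 5 of the 6 lower members out of 6 measured. Among all genes tested 25.4% were lower and 18.8% were higher, and counts of so few members support nothing by themselves. St3gal2, which caps galactose of O-glycans and gangliosides and makes SSEA-4 in human pluripotent cells, had signals of 10.31, 10.37 and 10.32 in iPS M13 and 13.24, 13.26 and 13.28 in mix1. Its iPS M13 signals lay far below those of mix1 on each array, with a ratio of -2.92 ± 0.03 or 7.59-fold lower (adjusted p = 9.7e-07). St3gal5, the GM3 synthase at the root of most gangliosides, had 10.91, 10.93 and 10.81 in iPS M13 against 12.99, 12.99 and 12.89 in mix1. The groups did not overlap, and the ratio was -2.07 ± 0.01 (adjusted p = 9.4e-07).

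St3gal4, which caps lactosamine on N- and O-glycans, had 9.22, 9.13 and 9.34 in iPS M13 and 10.79, 10.64 and 10.91 in mix1. All iPS M13 values were lower, with a ratio of -1.55 ± 0.04 (adjusted p = 3.2e-06), which fell short of 2-fold at -0.82 with median centring and -0.87 with no normalization. St3gal1, which caps core 1 O-glycans, had 7.30, 7.24 and 7.27 in iPS M13, well above background on 1 array, and 8.58, 8.42 and 8.55 in mix1. It was lower on each array, with a ratio of -1.24 ± 0.06 (adjusted p = 1.3e-05), short of 2-fold at -0.99 with median centring and -0.80 with the probe GC trend taken off. St3gal3, which acts mainly on type 1 and type 2 lactosamine chains, had 7.05, 6.95 and 6.93 in iPS M13, where no array was well above background, and 8.43, 8.50 and 8.59 in mix1. St3gal3 was at least 2.59-fold lower in iPS M13 (adjusted p = 7.2e-05). St3gal6, which also caps lactosamine, differed little, at 0.14 ± 0.03.

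The alpha-2,6 group did not run 1 way. St6galnac3, which adds sialic acid to the GalNAc of sialylated core 1 glycans and to gangliosides, had signals of 11.12, 11.35 and 11.16 in iPS M13 and 8.98, 9.24 and 9.02 in mix1. It was higher in iPS M13 on each array, by 2.13 ± 0.01 or 4.38-fold (adjusted p = 9.6e-07), the highest ratio among members measured in both RNAs. St6galnac2, which acts on O-glycans, had 6.80, 6.67 and 6.44 in iPS M13, not well above background on any array, and 8.98, 8.76 and 8.85 in mix1. St6galnac2 was at least 3.54-fold lower in iPS M13 (adjusted p = 3.5e-05). St6gal1, the main enzyme of alpha-2,6 sialic acid on N-glycans, had 11.63, 11.65 and 11.57 in iPS M13 and 11.30, 11.29 and 11.17 in mix1. Its iPS M13 signals were above those of mix1 on each array, but by 0.36 ± 0.04 (adjusted p = 0.00017), short of 2-fold; without within-array normalization the ratio was 1.15, and with the probe GC trend taken off it was -0.0055.

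The alpha-2,8 group, which builds disialyl and polysialyl chains, had 6 genes and 1 measured, St8sia4. This polysialyltransferase passed neither way, at -0.58 ± 0.20. Its signals were much brighter in both RNAs on replicate 3, at 9.62 in iPS M13 and 10.43 in mix1, than on the other arrays, where iPS M13 had 7.54 and 7.48 and mix1 had 7.97 and 7.96. St8sia1, the GD3 synthase, was well above background in neither RNA, with 7.01, 7.02 and 7.06 in iPS M13 and 6.29, 6.43 and 6.40 in mix1. St8sia3 passed in iPS M13 on 2 arrays and in mix1 on none, at least 1.24-fold higher on the bound with no test.

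Galactosyltransferases numbered 12, of which 10 were measured, 4 were lower, 6 passed neither way and none was higher. Among all genes tested the shares were 25.4% lower and 18.8% higher. B4galt3, a relative of B4galt1, was at 0.70 and became the 1 higher member under other scalings, at 1.51 with median centring, 1.47 with no normalization and 1.04 with the processed signals or the authors' deposited table. A3galt2, the iGb3 synthase that starts the isoglobo-series lipids, had signals of 7.74, 7.84 and 7.69 in iPS M13 and 12.69, 12.74 and 12.75 in mix1. The separation was wide on every array, with a ratio of -4.97 ± 0.08 or 31.4-fold lower (adjusted p = 1.1e-06), the lowest among members measured in both RNAs. B4galt1, the main galactosyltransferase of N-glycan antennae, had 9.45, 9.40 and 9.35 in iPS M13 and 12.21, 12.14 and 12.09 in mix1. Its iPS M13 signals were lower on each array, by a ratio of -2.75 ± 0.01 or 6.72-fold (adjusted p = 6.6e-07), and the second probe gave -2.71.

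B4galt7, which adds the first galactose of the proteoglycan linker to xylose, had 12.27, 12.19 and 12.33 in iPS M13 and 14.53, 14.44 and 14.57 in mix1. It was lower by a ratio of -2.25 ± 0.01 (adjusted p = 8.3e-07), with no overlap of the groups. B4galt2, a relative of B4galt1, had 9.83, 9.71 and 9.81 in iPS M13 and 11.59, 11.48 and 11.64 in mix1. Its ratio was -1.79 ± 0.04 (adjusted p = 2.6e-06), lower on each array, but -0.99 and short of 2-fold with median centring. The other 6 measured members passed neither way, from -0.92 for B4galt4 to 0.70 for B4galt3, with B4galt5, a lactosylceramide synthase like B4galt6, at -0.10, and included B3galt6, which adds the next galactose of the same linker, at -0.59. B3galt4, the GM1 synthase, was at -0.01 ± 0.02. B4galt6, a lactosylceramide synthase, is uncertain because its 2 probes disagreed, at -0.90 and 0.29. With the probe GC trend taken off, B4galt4 at -1.06 and B4galt6 at -1.27 passed as lower.

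B3galt5, which makes SSEA-3 in human pluripotent cells, was well above background in neither RNA, with 6.82, 6.83 and 7.21 in iPS M13 and 6.95, 6.78 and 7.20 in mix1. Nor was B3galt1.

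GalNAc-transferases numbered 15, of which 10 were measured, 1 was higher, 8 were lower and 1 passed neither way, with a median of -1.82. Of the lower ones, B4galnt1, Galnt10, Galnt15 and Galnt3 passed the background filter through mix1 alone. Over all genes tested, 25.4% were lower and 18.8% were higher. B3galnt1, the globoside synthase of the globo-series route, had signals of 8.60, 8.63 and 8.59 in iPS M13 and 12.77, 12.79 and 12.81 in mix1. Its iPS M13 signals were far below those of mix1, with a ratio of -4.19 ± 0.03 or 18.2-fold lower (adjusted p = 6.6e-07), and the second probe gave -3.90. B4galnt1, the GM2 synthase, had 7.47, 7.42 and 7.40 in iPS M13, well above background on 2 arrays, and 9.93, 9.80 and 9.91 in mix1. It was lower on each array, at -2.45 ± 0.06 (adjusted p = 3.0e-06). Of the ganglioside route, St3gal5 and B4galnt1 were lower, while B3galt4 passed neither way.

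The other 13 GalNAc-transferases belong to the family that adds GalNAc to serine or threonine in mucin-type O-glycans. Of 8 measured, 6 were lower and 1 was higher, beside 25.4% lower and 18.8% higher among all genes tested. Galnt7, which prefers peptides that already carry GalNAc, was the higher one, with 10.82, 10.94 and 10.90 in iPS M13 and 9.24, 9.87 and 9.30 in mix1. It was higher on each array, at 1.42 ± 0.30 (adjusted p = 0.00084), with the smallest gap on replicate 2, where mix1 was brightest. Galnt15 had 6.66, 6.55 and 6.48 in iPS M13, not well above background on any array, and 9.56, 9.48 and 9.63 in mix1. Galnt15 was at least 5.72-fold lower in iPS M13 (adjusted p = 9.9e-06). Galnt18 had 7.76, 7.98 and 7.76 in iPS M13 and 10.68, 10.74 and 10.68 in mix1, at -2.87 ± 0.09 (adjusted p = 4.0e-06).

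Galnt1, a widely expressed initiator, had 11.97, 12.02 and 11.98 in iPS M13 and 14.03, 14.07 and 14.03 in mix1. The groups stood apart by -2.05 ± 0.004 (adjusted p = 9.2e-07), and the second probe gave -1.56. Galnt10 had 7.54, 7.47 and 7.55 in iPS M13, well above background on 2 arrays, and 9.15, 8.93 and 9.21 in mix1. It was lower on each array, at -1.58 ± 0.11 (adjusted p = 2.7e-05). Galnt3, the enzyme whose loss in humans causes familial tumoral calcinosis, had 6.57, 6.63 and 6.59 in iPS M13 and 7.92, 7.74 and 8.02 in mix1. No iPS M13 array was well above background, and the signal was at least 1.81-fold lower (adjusted p = 0.00019), a bound short of 2-fold. Galnt2 was lower at -1.15, but fell short of 2-fold at -0.54 with median centring, -0.59 with no normalization and -0.98 with the processed signals or the authors' deposited table. Galnt11 passed neither way at -0.72, and was at 0.10 with median centring. Galnt9 was bright in both RNAs on replicate 2 alone, and Galnt13 passed in iPS M13 on 2 arrays and in mix1 on none.

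GlcNAc-transferases numbered 16, with 7 measured, 1 higher, 4 lower and 2 that passed neither way. Among all genes tested the shares were 25.4% lower and 18.8% higher. Mgat1, which starts hybrid and complex N-glycans, had signals of 11.47, 11.58 and 11.49 in iPS M13 and 14.34, 14.33 and 14.35 in mix1. It was lower on each array, by a ratio of -2.83 ± 0.07 or 7.12-fold (adjusted p = 2.6e-06), and the second probe gave -2.67. Mgat2, the next branching enzyme, passed neither way at -0.48 ± 0.02; it was at 0.32 with median centring, and lower at -1.14 with the probe GC trend taken off. Mgat4a, which adds a further antenna, had 8.49, 8.53 and 8.55 in iPS M13 and 7.14, 7.43 and 7.29 in mix1, where no array was well above background. It was at least 2.24-fold higher (adjusted p = 9.6e-05), and with the probe GC trend taken off its ratio was 0.94, short of 2-fold.

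Gcnt2, the I-branching enzyme of polylactosamine, had 7.80, 7.92 and 7.89 in iPS M13 and 12.44, 12.50 and 12.46 in mix1. All iPS M13 signals lay far below, with a ratio of -4.60 ± 0.04 or 24.2-fold lower (adjusted p = 6.3e-07). B3gnt2, the main polylactosamine extender, had 9.61, 9.60 and 9.59 in iPS M13 and 11.39, 11.42 and 11.42 in mix1. It was lower at -1.81 ± 0.03 (adjusted p = 1.7e-06), and less so by its second probe, at -1.13. Gcnt1, the core 2 O-glycan branching enzyme, had 6.73, 6.73 and 7.12 in iPS M13, not well above background on any array, and 7.89, 7.85 and 8.02 in mix1. It was at least 1.84-fold lower (adjusted p = 0.00019), a bound short of 2-fold, and its measured ratio was -0.98 with median centring. B3gnt7 passed neither way at -0.04.

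Mgat3, which adds the bisecting GlcNAc, had 6.70, 6.66 and 6.28 in iPS M13, where no array passed, and 7.78, 7.44 and 7.52 in mix1, where 2 did. Mgat5, the enzyme of the beta-1,6 branch, was well above background in neither RNA, with 7.17, 7.14 and 7.10 in iPS M13 and 7.10, 7.02 and 6.92 in mix1. The iPS M13 signal of B3gnt5, the starter of lacto-series lipids, was at least 1.38-fold higher with no test. Of the 70 members, 20 had no array on which either RNA was well above background. Beside Fut1, Fut2, Fut7, St8sia1, B3galt1, B3galt5 and Mgat5, these were St6gal2, St8sia2, St8sia5 and St8sia6 of the sialyltransferases, Galnt5 and Galnt12, and B3gnt3, B3gnt4, Gcnt3, Mgat4c and Mgat5b of the GlcNAc-transferases, with Galntl5 and B3gntl1, whose sugar is not established. A further 9 members were well above background on some arrays only: B3gnt5, Fut9, Galnt13 and St8sia3 in iPS M13 alone, B3gnt8, Galnt16 and Mgat3 in mix1 alone, and Galnt9 and St6galnac1 in both. The gene that the array calls B3gnt6 was matched through its neighbours on the chromosome to B4gat1, which adds glucuronic acid to the glycan of dystroglycan, and it passed neither way at -0.34.

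**Figure D2:**
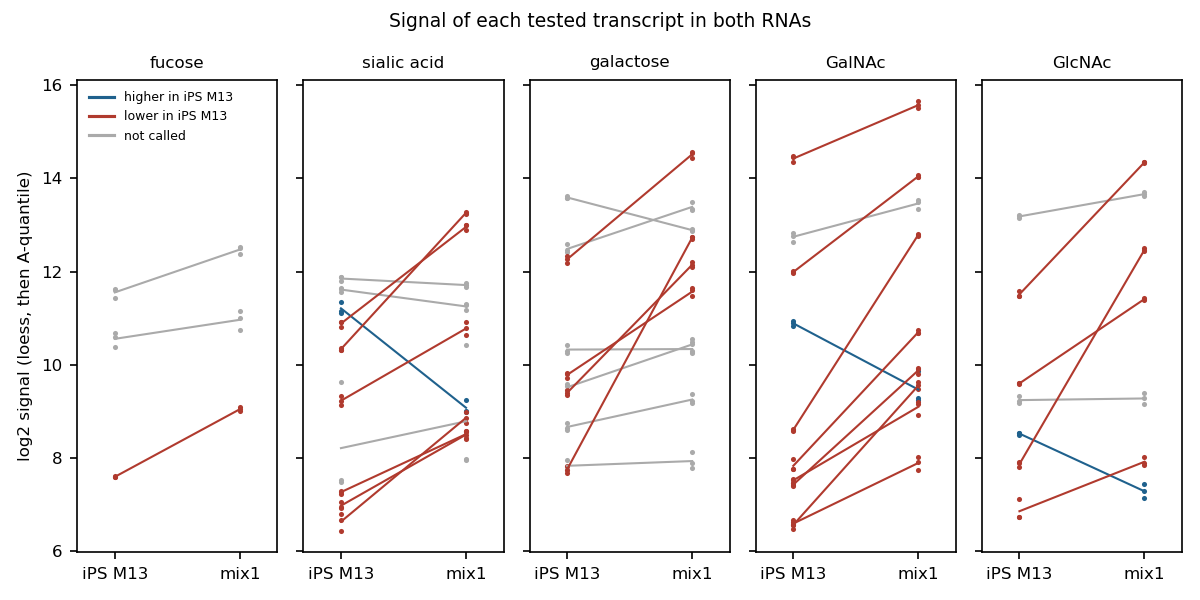
Log2 signal in iPS M13 (left) and mix1 (right) for 40 measured members, grouped by sugar; the glucuronic acid transferase B4gat1 is not drawn. Points are arrays, lines join the means, and colours give the call, so red lines slope up to the right where mix1 was brighter.

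**Figure D3:**
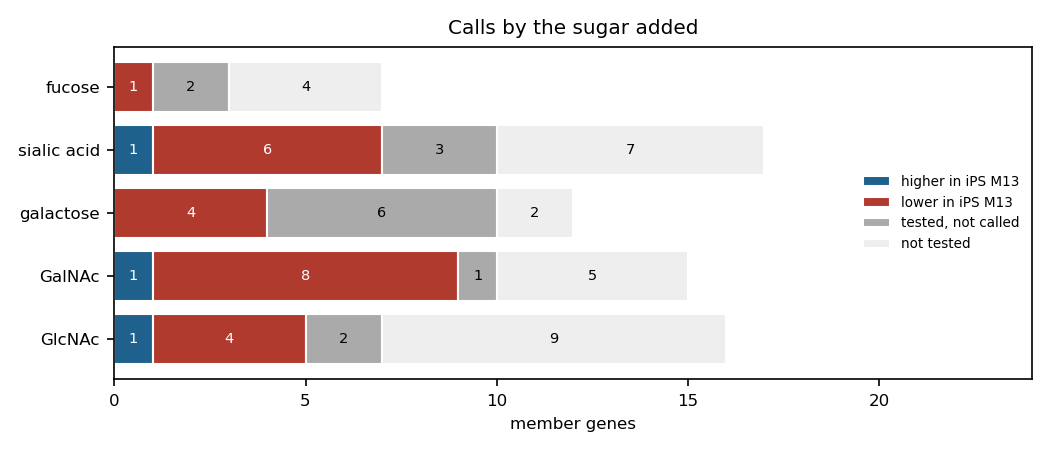
Number of member genes (horizontal axis) by the sugar added and by call, as bars from 0. The 2 members of no established sugar and the 1 of glucuronic acid are not drawn. GalNAc-transferases, with 10 measured, hold 8 of the 23 lower members. None of the 3 measured fucosyltransferases or 10 measured galactosyltransferases was called higher, numbers too small to set against the share of all genes. Over all genes tested, 25.4% were lower and 18.8% were higher.

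Of the lists of other glycan genes, those of breakdown and of lectins and carriers held the largest shares of lower genes. Over all genes tested, 25.4% were lower and 18.8% were higher. Genes that passed the background filter through mix1 alone favour a lower call, so these shares support nothing by themselves. Among lectins and carriers these genes were Lgals2, Lgals5, Lgals9, Asgr2 and Muc1, of which all but Muc1 were called lower. Of 14 measured glycan-breaking enzymes of the lysosome and related sites, 11 were lower and none was higher, with a median of -1.91. Among them was Glb1, the lysosomal enzyme that removes beta-linked galactose, at -2.93. Of 26 measured genes of nucleotide sugar synthesis and transport, 8 were lower and none was higher, with a median of -0.58. The lowest were Gfpt2 at -2.72, which feeds the hexosamine pathway, and Gmppb at -1.97 and Gmppa at -1.89, of GDP-mannose synthesis.

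Of 17 measured genes that transfer or trim N-glycans, 8 were lower and none was higher, with a median of -0.73. They included Man2a1, a Golgi mannosidase, at -2.79, and Stt3a, a catalytic oligosaccharyltransferase subunit, at -1.92. Man1c1, another mannosidase, was not well above background in iPS M13 and was at least 3.65-fold lower. Of 12 other measured glycosyltransferases, 3 were higher and 3 were lower, near the shares among all genes tested (18.8% higher, 25.4% lower). The higher ones were Mfng at 2.60, which extends O-fucose on Notch, Abo at 2.38, the blood group transferase, whose close rat copies make its value uncertain, and Ogt at 1.06, the cytosolic O-GlcNAc transferase. The lower ones included Pofut2, which adds O-fucose to protein, at -1.22 and Ggta1, the alpha-galactosyltransferase, at -1.03. Among lectins and glycan carriers 1 of 11 measured was higher, the sialomucin Podxl at 3.90, and 8 were lower, the lowest being Lgals1 at -7.46, Lgals3 at -5.90 and Mrc1 at -3.74.

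**Figure D4:**
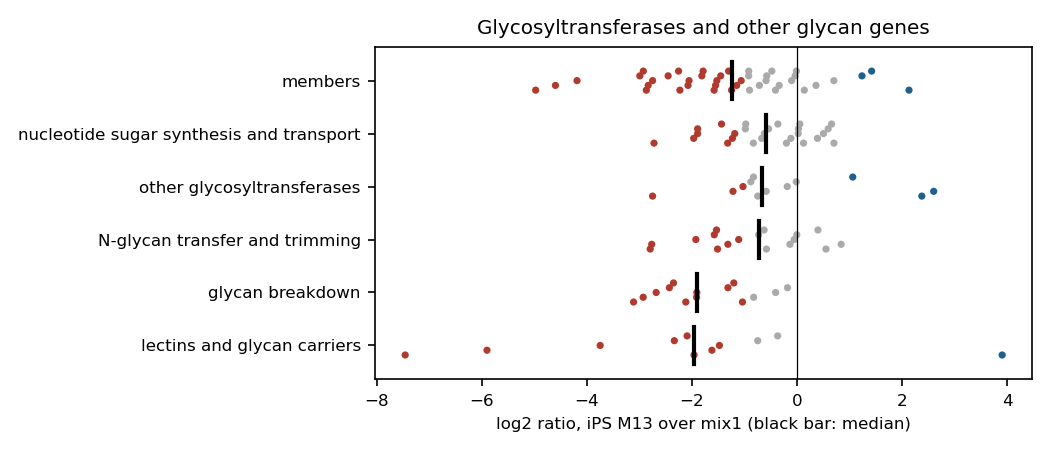
Log2 ratio of iPS M13 over mix1 (horizontal axis) for each measured gene of the members and of 5 related lists. Points are genes coloured by call, with height inside a row used only to separate them, and the black bars are medians, at -1.24 for the members and -1.91 for glycan breakdown.

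Cell type markers also differed between iPS M13 and mix1. All 12 fibroblast markers were lower in iPS M13, and their summed signal was 15999 to 18328 in iPS M13 and 2.23e+06 to 2.48e+06 in mix1, with Postn and Thy1 not well above background in iPS M13. All 10 measured markers of macrophages and other marrow cells were lower, with a summed signal of 4473 to 4763 in iPS M13 and 317047 to 331861 in mix1. Ctss, Itgam, Ptprc and Mpo were not well above background in iPS M13. Mpo was not well above background in mix1 either, at 6.43, 6.29 and 6.24, and Itgam passed in mix1 on 2 arrays, so neither was tested. All 6 pluripotency markers were higher in iPS M13. Of the other measured markers, 2 of 3 for keratinocytes and 3 of 3 for muscle were lower, and 1 of 2 for endothelium was higher. Among all genes tested 25.4% were lower and 18.8% were higher. In these bulk samples fewer cells of a type and less RNA per cell cannot be told apart, and the part of the cell mix in the members' values was not tested.

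The scaling of the arrays moved the members by unequal amounts. With median centring Fut8 was at -0.08 against -0.92 with loess, while Galnt3 was at -1.27 against -1.30. With the processed signals Galnt3, which was dim in iPS M13, was at -3.08, and the members' median was -1.47. Relative to loess, the median of all genes rose by 0.59 with median centring, by 0.55 with no within-array normalization and by 0.31 with the scanner software's processed signals. The share of called genes that were higher was 42.5% with loess, 66.7% with median centring, 65.1% with no normalization and 56.6% with the processed signals. Among the members this share was 11.5% with loess and 21.7% with median centring, where the members' median was -0.98 and that of all genes was 0.57. No called member changed sign under any alternative. Log2 ratios also fell with probe GC, by 0.44 on the log2 scale per 10% of GC, and the median probe GC was 40.0% for the higher members, 45.0% for the lower ones and 43.3% for all genes tested.

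**Figure D5:**
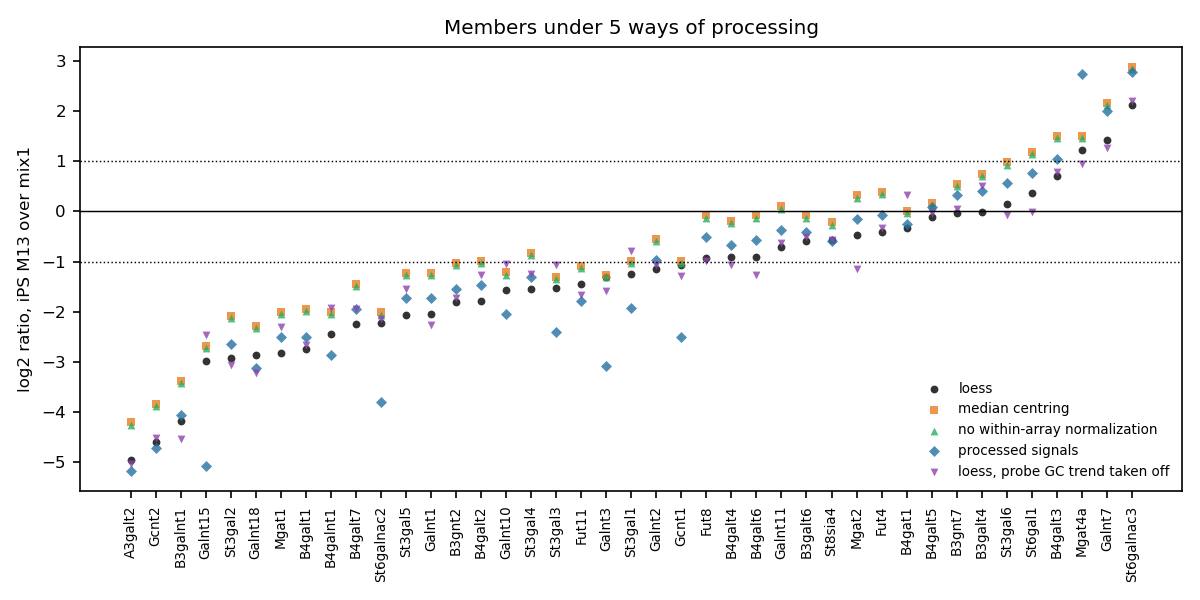
Log2 ratio of iPS M13 over mix1 (vertical axis) for the 41 measured members, in order of their loess value, under 5 ways of processing. Dotted lines mark a 2-fold difference; median centring and no normalization lie above loess for most members, and the called members keep their side of 0.

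Promoter sequence was described because the members moved in both directions. RefSeq promoters in build GRCr8, from 250 bases before to 50 bases after the annotated start, were found for 59 of the 70 members. The GC box, GGGCGG or its complement CCGCCC on either strand, a motif bound by Sp family factors, stood in 3 of 3 promoters of higher members, 6 of 18 of lower members and 9 of 13 of measured members that passed neither way. It stood in 62.3% of the promoters of all genes tested and in 34.9% of all promoters. A match is a description of these letters and not a site. The promoters of the highest and the lowest member follow, with the GC box in capitals. That of St6galnac3 lies at chr2:245304896-245305195 on the minus strand and holds 1 box, and that of A3galt2 at chr5:146385562-146385861 on the plus strand and holds none.
St6galnac3: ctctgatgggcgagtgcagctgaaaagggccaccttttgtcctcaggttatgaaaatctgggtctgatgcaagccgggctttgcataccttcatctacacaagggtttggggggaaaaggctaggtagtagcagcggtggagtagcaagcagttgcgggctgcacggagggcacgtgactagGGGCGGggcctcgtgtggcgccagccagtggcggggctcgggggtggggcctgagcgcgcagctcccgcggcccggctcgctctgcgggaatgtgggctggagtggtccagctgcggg
A3galt2: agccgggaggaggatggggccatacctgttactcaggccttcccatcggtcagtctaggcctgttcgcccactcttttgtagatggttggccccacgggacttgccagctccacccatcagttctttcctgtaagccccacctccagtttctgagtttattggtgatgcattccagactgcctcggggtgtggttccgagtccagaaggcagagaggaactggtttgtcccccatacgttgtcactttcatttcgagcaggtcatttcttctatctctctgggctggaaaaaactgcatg

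On the chromosomes of build rn3, B4galt2 and St3gal3, both lower, lie 65765 bases apart on chromosome 5 by their probe positions. St6galnac2, which was lower, lies 78319 bases from St6galnac1 on chromosome 10, which was not tested.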

How the data were processed

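The authors deposited each spot's intensity from the scanner, with mean signals and local backgrounds for both channels. Agilent Feature Extraction appears in the submitters' processing notes; its version was 9.5.3.1, per the file headers. The deposited log10 ratios compare Cy5 with Cy3 after that software's own processing. The authors' value table holds log2 ratios of unstated direction and centring. Against the scanner values its columns correlated at 0.99986 or more in the Cy3 over Cy5 direction, which was taken, and their medians were -0.0413, -0.0282 and -0.0286; whether they were centred is unknown.

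Background was corrected with normexp (offset 50), followed by loess within arrays with control spots given weight 0, using limma 3.58.1 (R 4.3.3). Outlier spots, 205, 263 and 192 on replicates 1, 2 and 3, were left out. Probes had to pass the scanner's background test in 1 channel on all 3 arrays, which 24178 did, and each gene took its brightest such probe. Mean log2 ratios were tested against 0 by lmFit and eBayes with Benjamini-Hochberg adjustment over 20357 genes, and called at an adjusted p under 0.05 and at least 2-fold. The arrays shared 1 slide and 1 scan date, so no batch could be set as a block. An exact sign-flip test over 3 arrays has a smallest two-sided p of 0.25, so it was not used. Signals per RNA are after loess and Aquantile scaling. Where an RNA failed the background test on every array, "at least N-fold" sets the bright mean against the dim one, raised on each array to the lowest passing signal if below it. In mix1 that lowest signal was 7.35, 4.72 and 7.14 on replicates 1, 2 and 3. On replicate 2 the dim mix1 signals of Fut9, B3gnt5, St8sia3 and Mgat4a were therefore not raised. Their bounds are less strict for that reason. The fit was also run on simulated arrays in which few bright probes differed, both up and down. Such a run cannot show how the scaling behaves here, where many genes differed, nor the spread between cultures.

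Of 80 member probes, 54 were named by accession, 19 by symbol, 3 by synonym and 4 by neighbouring genes in the RefSeq table for GRCr8. Per-array values are given for called members (up to 6 highest and 6 lowest per sugar) and for a fixed set of other members, with the 3 highest and 3 lowest called genes of each related list, except for some that are not reported here. The members and lists were chosen with earlier results of these data known. Alternatives covered background correction, scaling, filters, probe choice, probe GC and each replicate left out. Tables and figures were made in Python 3.11.15 (pandas 2.3.3, numpy 2.4.6, matplotlib 3.10.9).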

Additional observations from a re-analysis of the deposited data

How the results depend on the processing

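No paired analysis was possible because each array holds the only group against 1 control RNA, so no groups share replicate numbers. Leaving out each replicate in turn left 3 members higher and 23 lower, with 3745 to 3912 genes higher and 5127 to 5208 lower, and a member median of -1.28 to -1.23. Of the 26 called members, 20 kept their call under every alternative that tested them. With median centring 5 members and 7318 genes were higher, as were 2 sialic acid and 1 galactose members, and the member median was -0.98. With no within-array normalization these were 5, 7012, 2, 1 and -1.03. With the processed signals, and with the authors' value table, 6323 genes and 1 galactose member were higher and the median was -1.47. The median was -1.50 with an offset of 10 and -1.52 with plain subtraction. Without the filter on dim probes 1 fucose member, Fut9, was higher and the median was -0.43. With both RNAs above background, a set that leaves out dim members by construction, 14 members were lower, 0 of fucose, 3 of sialic acid and 4 of GalNAc, 0 of GlcNAc were higher, and the median was -0.92. With the probe GC trend taken off no GlcNAc member (0) was higher and the median was -1.14. At an adjusted p alone 6 members were higher, with 9608 genes higher and 9950 lower, 3 fucose members lower, 3 sialic acid members higher, and 1 galactose member higher and 8 lower. Reversed signs were all in members that were not called: B3galt4 (0.76), B3gnt7 (0.55), B4galt5 (0.17), B4gat1 (0.0111), Fut4 (0.40), Galnt11 (0.10) and Mgat2 (0.32) with median centring; B3galt4 (0.71), B3gnt7 (0.50), B4galt5 (0.12), Fut4 (0.35), Galnt11 (0.057) and Mgat2 (0.28) with no normalization; B3galt4 (0.41), B3gnt7 (0.34) and B4galt5 (0.0883) with processed signals or the authors' table; B3galt4 (0.51), B3gnt7 (0.0419), B4gat1 (0.33), St3gal6 (-0.0788) and St6gal1 (-0.0055) with GC off; and B3galt4 without replicate 1, where leaving out each replicate gave -0.0189 to 0.0004. Calls were lost by B4galt2, Galnt2, Gcnt1, St3gal1 and St3gal4 with median centring, by Galnt2 and St3gal4 with no normalization, by Galnt2 with processed signals or the authors' table, and by Mgat4a and St3gal1 with GC off; the cause was not tested. Signal over background limits the test: 29 members were not tested, and 20 of them had neither RNA well above background on any array.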

Other observations

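Genes that carry such a symbol today, but stood on the array under another name, were outside the rule for members and are given here as values. Of 12 such genes, B4galnt4, which adds GalNAc to GlcNAc, was higher in iPS M13, with log2 signals of 13.34, 13.42 and 13.29 in iPS M13 and 11.69, 11.75 and 11.64 in mix1, a ratio of 1.66 ± 0.02 (SD, n = 3; limma, adjusted p = 1.6e-06). The iPS M13 signals were above those of mix1 on each array. St6galnac4, an alpha-2,6-sialyltransferase of O-glycans, was higher at 1.19 ± 0.02 (adjusted p = 3.7e-06). B3gnt9 was lower at -3.43 ± 0.02 and Mgat4b, which adds an N-glycan antenna as Mgat4a does, was lower at -2.53 ± 0.01. The iPS M13 signal of St6galnac6 differed by -0.78 and passed neither way.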
